A study of Mus musculus with 6 samples.

Results

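Type I interferon-stimulated genes were examined in mouse bone marrow-derived macrophages, which are macrophages that develop from marrow cells cultured with M-CSF. The list holds 37 genes chosen by name, and all 37 were found by Entrez identifier among the 14574 genes listed in any library (the gene named Ddx58 in RefSeq for GRCm38 is also called Rigi). All 37 were listed in all 6 libraries and had a mean of at least 1 FPKM (sequenced fragments normalised for transcript length and for the size of each library), the minimum for testing. The study compared 3 libraries from Cd28 KO mice with 3 from wild-type (WT) C57BL/6J mice, by sequencing of total RNA extracts. The animals were 6 to 10 weeks old. Marrow cells of both genotypes spent 7 days in medium with 10% serum and 2-mercaptoethanol, with additions of human M-CSF (25 ng/ml) every 2 days, and no stimulus was given. The labels do not describe the Cd28 allele or the sex of the mice, and do not say whether each numbered sample was a separate animal. The p-values therefore refer to the spread among these samples, which may in part be technical. Cd28 is a receptor best known for costimulation of T cells.

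Type I interferons bind a receptor made of Ifnar1 and Ifnar2, and the kinases Jak1 and Tyk2 then activate Stat2 among other factors. Stat2 joins Irf9 in a complex that binds the interferon-stimulated response element (ISRE) in the promoters of the target genes. Macrophages express many of these genes at a basal level, and the products include RNA sensors, antiviral effectors and factors that feed back on interferon signalling.

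The response element is shown for 6 of the members that held it upstream of the start in a RefSeq promoter window. Stat2, Trim30a and Ifit3 also held it there and are not shown. The windows (GRCm38.p6) run from 250 bases before to 50 after a transcription start. Capitals mark GAAA, any 2 bases and GAAA again, on either strand, and overlapping copies run together. The lines give 60 bases each, 5′ to 3′ on the strand of the gene.
Isg15 (chr4:156200855-156200914, minus strand): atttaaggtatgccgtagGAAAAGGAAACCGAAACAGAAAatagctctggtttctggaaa
Ifit1 (chr19:34640774-34640833, plus strand): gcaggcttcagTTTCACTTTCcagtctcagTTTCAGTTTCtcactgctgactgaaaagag
Oas1a (chr5:120907526-120907585, minus strand): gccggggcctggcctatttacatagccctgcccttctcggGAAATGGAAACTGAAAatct
Oas3 (chr5:120777705-120777764, minus strand): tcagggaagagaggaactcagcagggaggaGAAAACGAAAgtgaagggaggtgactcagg
Bst2 (chr8:71537567-71537626, minus strand): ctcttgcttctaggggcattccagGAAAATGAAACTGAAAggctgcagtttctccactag
Rsad2 (chr12:26456543-26456602, minus strand): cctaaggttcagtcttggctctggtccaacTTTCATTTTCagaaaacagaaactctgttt

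Isg15 held 3 overlapping copies, which begin at positions -78, -72 and -66 from the start. Windows were present for 27 of the 37 members, and 13 of these (48.1%) held the ISRE letters in at least 1 window. Among all 27025 genes with a window the share was 3.99%, and among the tested genes with a window 4.11%. The letters TTCNNNGAA, which match the gamma-activated site of interferon-gamma targets and read the same on both strands, were found in 7 of the 27 members (25.9%), against 9.55% of all genes with a window. A match is a description of the letters and not a measured binding site. The median difference between genotypes was 0.29 on the log2 scale over the 13 members with the letters and 0.29 over the 14 with a window that lacked them. It was 0.42 over the 10 members with no window. Every Cd28 KO library exceeded every WT library in 7, 4 and 4 members of these groups, and in 3.84% of all tested genes. The groups were not tested against each other.

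**Figure D1:**
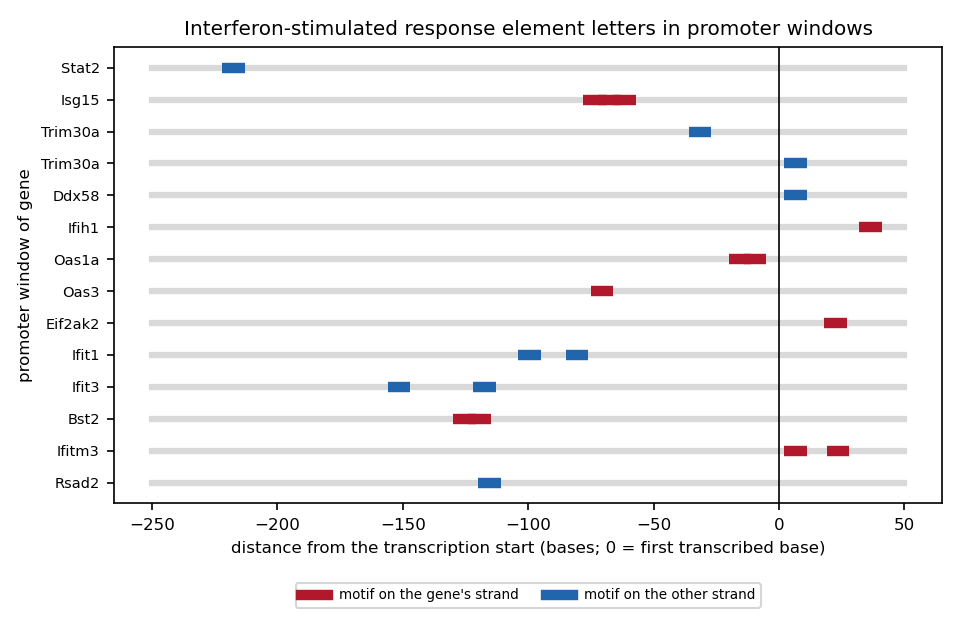
Positions of the ISRE letters in the promoter windows of the 13 members that held them. The horizontal axis is the distance from the transcription start in bases, each grey bar is 1 window, and blocks mark the motif on the gene's strand or on the other strand. Isg15 has 3 overlapping copies upstream of the start, and in Ddx58, Ifih1, Eif2ak2 and Ifitm3 the letters lie after the start.

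Replicate 3 differed from replicates 1 and 2 in both genotypes. Principal component 1 of the tested genes held 73.8% of the variance and placed Cd28 KO replicate 3 at 34.8 and WT replicate 3 at 36.1, with the rest between -18.2 and -17.4. The Y-linked genes Eif2s3y (39.1 FPKM in Cd28 KO and 31.8 in WT) and Ddx3y (10.6 and 14.4 FPKM) were listed in these 2 libraries and in no other. In each genotype replicate 3 thus included cells of a male animal, which replicates 1 and 2 did not. Sex and any other feature of replicate 3 cannot be told apart. Each library listed 12768 to 13327 genes, and its FPKM summed to 510937 to 576313. Read numbers are unknown. Cd28 itself (chromosome 1, 60746388 to 60773359) stood at 25.7, 24.2 and 26.9 FPKM in Cd28 KO replicates 1 to 3 and at 38.2, 30.1 and 51.1 in WT. It was therefore listed in every library, at 64.3% of the WT mean in Cd28 KO, with no overlap between the groups and p = 0.1 by an exact permutation test (two-sided), which is the lowest value possible for groups of 3. All 8 macrophage markers were listed, with sums from 14779 to 16869 FPKM in Cd28 KO libraries and from 14104 to 14783 in WT libraries. Most of each sum was Lyz2, at 12716, 10518 and 12172 FPKM in Cd28 KO replicates 1 to 3 and at 10311, 9652 and 10639 in WT. Cd68 went the other way, at 2035, 2036 and 1806 FPKM against 2264, 2288 and 1926. The 9 markers of T and NK cells summed to at most 1.97 FPKM in any library.

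Interferon-stimulated genes lay higher in Cd28 KO macrophages by a small amount, and no single member passed the test over all genes. The difference between group means was positive for 36 of the 37 members, with a median of 0.31 on the log2(FPKM + 1) scale and a range from -0.07 for Parp14 to 0.66 for Isg15. Over all 10172 tested genes the median was 0.00, and 49.1% were positive. The list was chosen with earlier results of these data known. The counts of members by genotype difference, here and in the other paragraphs, are therefore a description and not independent support. The level of the set also varied within genotypes: the pooled SD of the library medians was 0.23 on the log2 scale. The median member stood at 44.3, 45.4 and 31.8 FPKM in Cd28 KO replicates 1 to 3 and at 36.6, 36.1 and 29.4 in WT, so that Cd28 KO was higher in each pair but its replicate 3 lay below WT replicates 1 and 2. In 15 members every Cd28 KO library exceeded every WT library, which was so for 3.84% of all tested genes, and in 0 members was every Cd28 KO library below every WT library. By limma, 0 of the 37 had an adjusted p below 0.05, as against 0.0197% of all tested genes. At an unadjusted p below 0.05 and a positive difference, limma listed 16 of the 37 and 1.74% of all tested genes. The smallest adjusted p, 0.74, was shared by Isg15, Zbp1 and Xaf1, and the other 34 members stood at 0.9995.

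When the fit included replicate number as a block, 1 member was called by limma, Isg15, at an adjusted p of 0.038, while 0.177% of all tested genes were called. That call ended when the block was combined with median centring (adjusted p = 0.094), quantile normalization (0.061) or no filter on low genes (0.43). It held with the block on the TPM scale (0.028). At an unadjusted p below 0.05 and a positive difference, limma with the block listed 23 of the 37 and 5.08% of all tested genes. Replicates 1 and 2 alone gave limma calls for 11 members, all higher, beside 0.532% of all tested genes called higher: Irf7, Isg15, Zbp1, Oas2, Ifit2, Ifit3, Mx1, Mx2, Ifi44, Ifi27l2a and Xaf1.

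**Figure D2:**
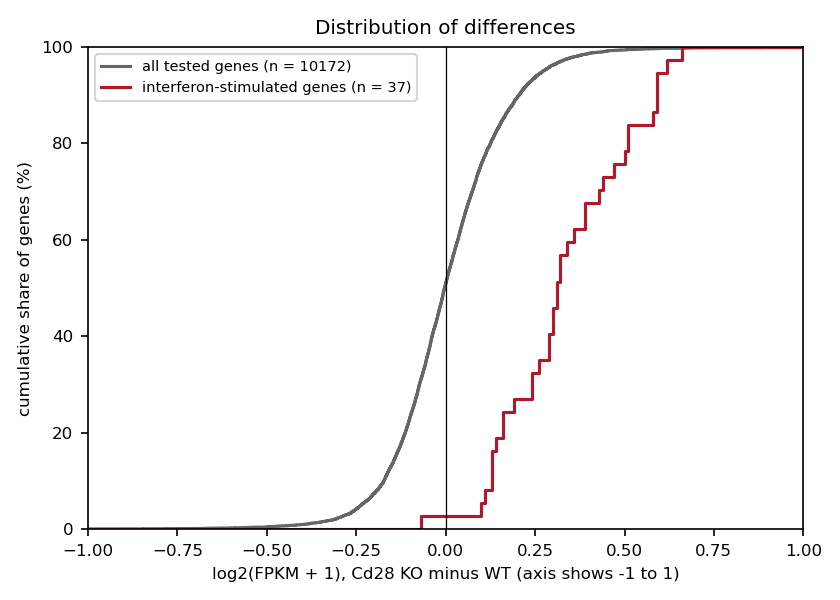
Cumulative share of genes (vertical axis, percent) by the difference between Cd28 KO and WT on the log2(FPKM + 1) scale (horizontal axis, drawn from -1 to 1). The line of the 37 interferon-stimulated genes, a list chosen with earlier results of these data known, lies to the right. The medians are 0.31 for these and 0.00 for the 10172 tested genes.

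The size of the difference varied among the 3 pairs of libraries with the same number. For replicates 1 and 2 this pairing by number is not established. In replicate 1 the Cd28 KO library exceeded the WT library for 33 of the 37 members, with a median difference of 0.30. In replicate 2 it did so for 35, with a median of 0.52, and in replicate 3 for 26, with a median of 0.20. The share of all tested genes with a positive difference was 51.5%, 57.6% and 43.1% in the same pairs. Altogether 24 members (64.9%) were higher in Cd28 KO in all 3 pairs, as were 1527 of the 10172 tested genes.

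By class, the median differences were 0.35 for the 22 effectors, 0.31 for the 4 sensors and 0.24 for the 11 signalling factors. Members are not replicates, so these medians were not tested against each other. The classes stood further apart in the replicate 3 libraries. There the median was 0.29 for effectors, with 17 of 22 positive, 0.08 for sensors, with 3 of 4 positive, and 0.03 for signalling factors, with 6 of 11 positive. In replicate 2 the medians were 0.51, 0.65 and 0.51.

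**Figure D3:**
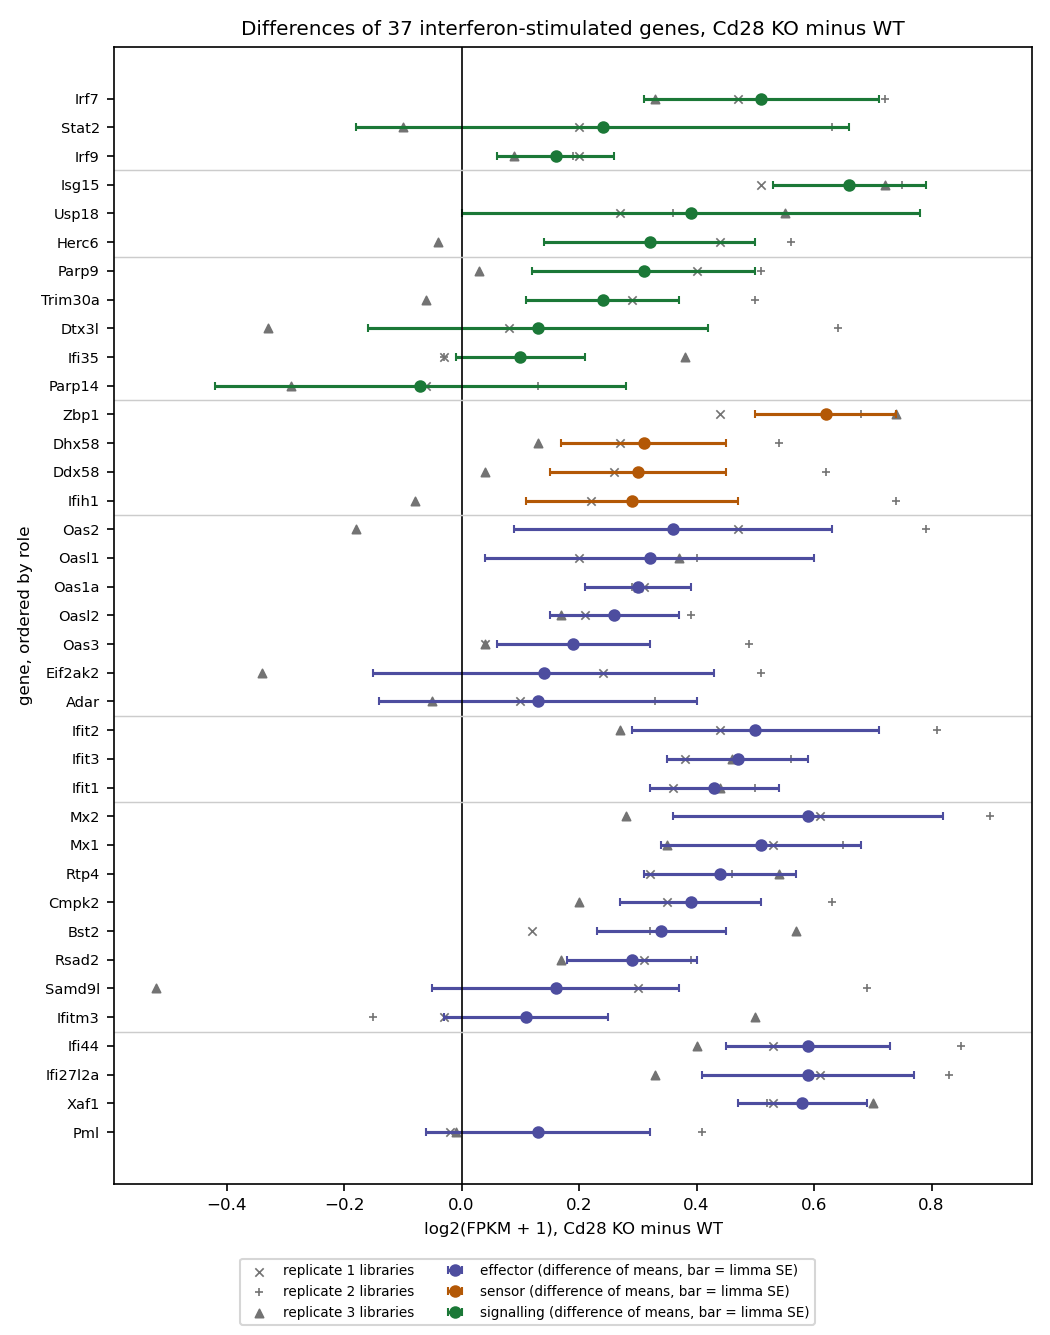
Difference between Cd28 KO and WT for each of the 37 genes on the log2(FPKM + 1) scale (horizontal axis), ordered by role. Circles are differences of group means with limma standard errors, coloured by class, and grey symbols are the differences within replicates 1, 2 and 3. All circles except that of Parp14 lie to the right of 0, while 11 of the replicate 3 symbols, those of Dtx3l, Eif2ak2 and Samd9l among them, lie left of it.

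Among the signalling factors, the 3 transcription factors of the pathway differed in how far the replicates agreed. Irf7, the factor that amplifies interferon production (chromosome 7, 141263183 to 141266499), stood at 194, 208 and 258 FPKM in Cd28 KO replicates 1 to 3 and at 139.7, 125.5 and 205 in WT. The replicate 3 library was the highest of each group, and WT replicate 3 exceeded Cd28 KO replicate 1, so the groups overlapped although Cd28 KO was higher in every pair. The difference was 0.51 ± 0.20 on the log2 scale (SE).

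Irf9, the DNA-binding subunit of the complex with Stat2 (chromosome 14, 55603985 to 55610030), stood at 48.2, 51.5 and 50.5 FPKM in Cd28 KO and at 41.8, 45.2 and 47.5 in WT. The groups did not overlap, but the difference was small, at 0.16 ± 0.10 (SE). Stat2, the partner of Irf9 in that complex (chromosome 10, 128270498 to 128292853), stood at 55.4, 67.4 and 23.1 FPKM in Cd28 KO and at 48.05, 43.3 and 24.7 in WT. Replicate 3 was the lowest of each group and reversed the order of the genotypes. The difference of 0.24 ± 0.42 (SE) was smaller than its error in the fit without the replicate block. With the block the SE was 0.13 (limma adjusted p = 0.73).

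The ISG15 system held the largest difference on the log2(FPKM + 1) scale, that of Isg15. The low-level gene Mx2 had a larger ratio of means (1.70 against 1.58), and a larger difference with a pseudocount of 0.1 (0.72 against 0.67) and in replicates 1 and 2 alone (0.75 against 0.63). Isg15 encodes a ubiquitin-like protein that is attached to other proteins and also secreted (chromosome 4, 156199424 to 156200818). It stood at 125.1, 120.5 and 110.03 FPKM in Cd28 KO and at 87.3, 71.0 and 66.6 in WT. The lowest Cd28 KO library lay well above the highest WT library, and the means were 119 ± 7.71 and 75.0 ± 10.9 FPKM (SD, n = 3 each), a ratio of 1.58. Its difference was 0.66 ± 0.13 (SE).

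Usp18, the protease that removes Isg15 and restrains the interferon receptor (chromosome 6, 121245906 to 121270917), stood at 44.7, 48.9 and 23.9 FPKM in Cd28 KO and at 37.05, 37.95 and 15.9 in WT. Cd28 KO was higher in every pair, and both replicate 3 libraries lay below the other 4. The difference was 0.39 ± 0.39 (SE) without the replicate block, and with it the SE was 0.1 (limma adjusted p = 0.29). Herc6, a ligase that attaches Isg15 in mouse cells (chromosome 6, 57580992 to 57665136), stood at 14.3, 14.3 and 9.41 FPKM in Cd28 KO and at 10.2, 9.39 and 9.71 in WT. Replicates 1 and 2 of Cd28 KO exceeded all WT libraries, and replicate 3 did not.

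The remaining regulators showed the smallest differences of the signalling class, with a median of 0.13. Parp9, Dtx3l and Parp14 are neighbours on chromosome 16 (35831892 to 35972621). Parp9 and Dtx3l form a complex of an ADP-ribosyltransferase family member and a ubiquitin ligase that acts in the interferon response. Their gene models overlap, and the labels do not state whether the counting used strand, so reads from the shared part cannot be told apart. Parp9 stood at 44.3, 42.5 and 27.8 FPKM in Cd28 KO and at 33.4, 29.5 and 27.1 in WT, with a difference of 0.31 ± 0.19 (SE).

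Parp14, an ADP-ribosyltransferase, was the 1 member with a negative difference. It stood at 35.1, 41.8 and 17.3 FPKM in Cd28 KO and at 36.6, 38.1 and 21.5 in WT, so that the groups overlapped widely. The difference of -0.07 ± 0.35 (SE) lay within its error, as it did with the replicate block (SE 0.11). Its sign was positive in replicates 1 and 2 alone (0.04) and without Cd28 KO replicate 3 (0.29). Trim30a, a tripartite motif protein of the interferon response (chromosome 7, 104409025 to 104465193), stood at 60.15, 67.0 and 49.96 FPKM in Cd28 KO and at 49.2, 47.0 and 52.2 in WT. Dtx3l had means of 22.1 ± 8.61 and 19.2 ± 2.99 FPKM (SD, n = 3 each), and Ifi35, which binds other interferon-induced proteins, 55.3 ± 5.45 and 51.3 ± 3.70 FPKM.

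All 4 nucleic acid sensors had positive differences, led by Zbp1. Zbp1 binds left-handed nucleic acid and starts necroptosis (chromosome 2, 173206612 to 173218959). It stood at 70.2, 73.0 and 87.0 FPKM in Cd28 KO and at 51.3, 45.3 and 51.6 in WT, and the groups were well separated. The means were 76.7 ± 9.01 and 49.4 ± 3.57 FPKM (SD, n = 3 each), a ratio of 1.55, and the difference was 0.62 ± 0.12 (SE).

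The 3 RIG-I-like receptors had differences from 0.29 to 0.31, which moved with single libraries. Without Cd28 KO replicate 2 they were 0.17 for Ddx58, 0.15 for Ifih1 and 0.31 for Dhx58, and without Cd28 KO replicate 3 they were 0.45, 0.44 and 0.28. Without WT replicate 2, Dhx58 stood at 0.20. Dhx58, which encodes Lgp2, a regulator of the other 2 (chromosome 11, 100694884 to 100704271), stood at 42.7, 45.4 and 47.0 FPKM in Cd28 KO and at 35.3, 30.8 and 42.9 in WT. WT replicate 3 just exceeded Cd28 KO replicate 1, and the difference was 0.31 ± 0.14 (SE). Ifih1, which encodes the long double-stranded RNA sensor Mda5 (chromosome 2, 62595618 to 62646255), stood at 13.3, 16.5 and 10.8 FPKM in Cd28 KO and at 11.3, 9.43 and 11.5 in WT. Cd28 KO was the lower of the pair in replicate 3. Ddx58, which encodes Rig-I, the sensor of 5′ triphosphate RNA, had means of 37.5 ± 7.38 and 29.8 ± 1.12 FPKM (SD, n = 3 each), and its Cd28 KO replicate 3 lay within the WT range.

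**Figure D4:**
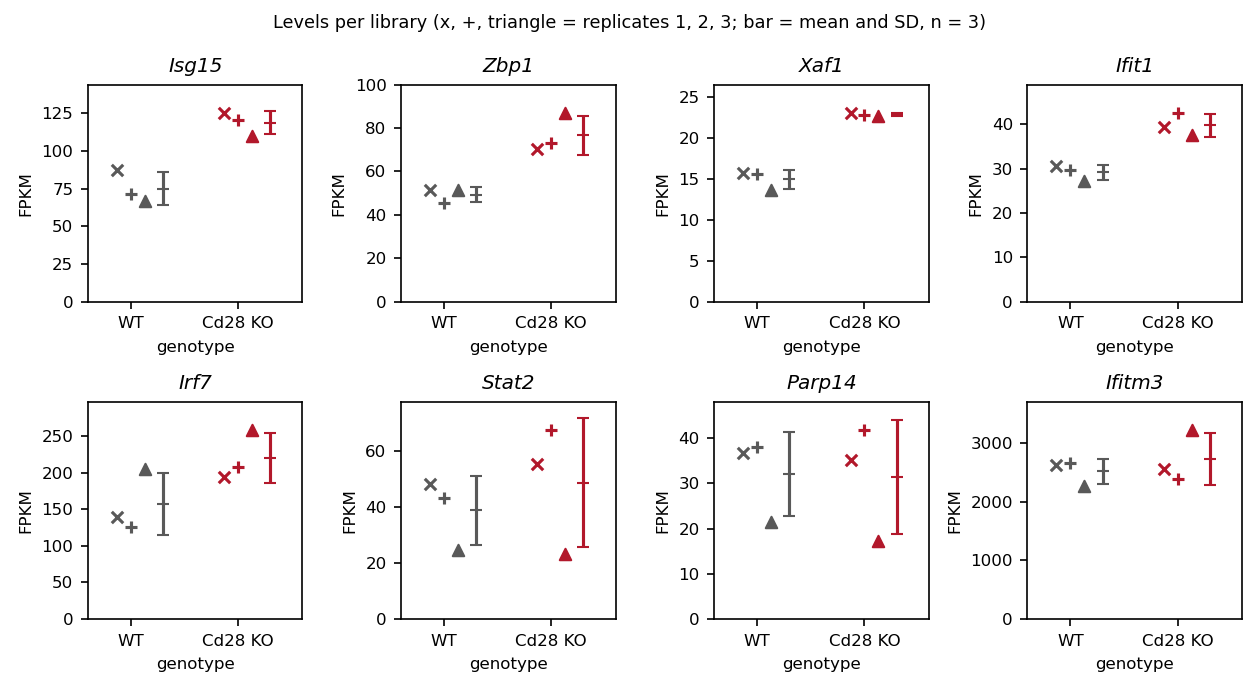
FPKM of 8 members (vertical axes, each from 0) in the 3 WT and 3 Cd28 KO libraries, with the mean and SD beside them. Crosses, plus signs and triangles are replicates 1, 2 and 3. Isg15, Zbp1, Xaf1 and Ifit1 show no overlap between the genotypes, while in Stat2 and Parp14 both replicate 3 libraries lie below the other 4.

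Among the effectors, the 7 members grouped as OAS family proteins and double-stranded RNA enzymes had a median difference of 0.26. The active OAS enzymes make 2′-5′ oligoadenylates, which activate the ribonuclease RNase L, and not every OAS-like protein has this activity. Oas1a (chromosome 5, 120896256 to 120907544) stood at 130.1, 120.7 and 131.7 FPKM in Cd28 KO and at 104.9, 98.6 and 106.6 in WT. It was among the most even members, with no overlap, pair differences of 0.31, 0.29 and 0.30, and a difference of means of 0.30 ± 0.09 (SE). Oasl2, an OAS-like protein (chromosome 5, 114896926 to 114912245), stood at 184, 195 and 157 FPKM in Cd28 KO and at 158, 149 and 140.2 in WT, and Cd28 KO replicate 3 lay just below the highest WT library.

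Adar, the enzyme that edits adenosine in double-stranded RNA (chromosome 3, 89714469 to 89753455), stood at 30.2, 36.3 and 18.3 FPKM in Cd28 KO and at 28.1, 28.7 and 18.9 in WT. Both replicate 3 libraries were low, and the difference of 0.13 ± 0.27 (SE) lay within its error in the fit without the replicate block. With the block the SE was 0.11 (limma adjusted p = 0.85). Eif2ak2, the kinase PKR that stops translation on double-stranded RNA, had means of 15.6 ± 6.07 and 13.4 ± 1.77 FPKM (SD, n = 3 each). Oas2 had means of 53.2 ± 18.8 and 39.4 ± 4.05 FPKM, Oas3 60.4 ± 9.51 and 52.5 ± 1.81, and Oasl1 26.4 ± 8.94 and 20.8 ± 6.41. Of these 4, Oas3 showed no overlap.

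The 3 IFIT genes, neighbours on chromosome 19 (34550550 to 34650009), were higher in Cd28 KO in all 3 pairs. The product of Ifit1 binds viral RNA that lacks the cap methylation of host messages. Ifit1 stood at 39.4, 42.6 and 37.5 FPKM in Cd28 KO and at 30.6, 29.8 and 27.3 in WT, without overlap, and the difference was 0.43 ± 0.11 (SE). Ifit3 stood at 125.9, 130.9 and 107 FPKM in Cd28 KO and at 96.4, 88.6 and 77.7 in WT, again without overlap, with a difference of 0.47 ± 0.12 (SE). Ifit2 stood at 55.5, 64.0 and 37.5 FPKM in Cd28 KO and at 40.8, 36.1 and 30.9 in WT. Its Cd28 KO replicate 3 lay below WT replicate 1, so the groups overlapped despite a difference of 0.50 ± 0.21 (SE).

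Of the 8 members grouped as membrane proteins, GTPases and nucleotide enzymes, 5 showed no overlap, and the median difference was 0.37. Rtp4, a chaperone of receptors that also acts against viruses (chromosome 16, 23520219 to 23614222), stood at 219, 218 and 191 FPKM in Cd28 KO and at 175, 158 and 131 in WT. All Cd28 KO values lay above the WT values, with a difference of 0.44 ± 0.13 (SE). Cmpk2, a nucleotide kinase of mitochondria next to Rsad2 on chromosome 12 (26469117 to 26479837), stood at 30.4, 32.7 and 26.7 FPKM in Cd28 KO and at 23.7, 20.8 and 23.1 in WT, also without overlap. Rsad2 encodes viperin, which makes a chain-terminating nucleotide, and had means of 26.2 ± 1.23 and 21.3 ± 1.07 FPKM (SD, n = 3 each).

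Samd9l, an inhibitor of translation (chromosome 6, 3372257 to 3399571), showed the widest disagreement between replicates. It stood at 38.3, 43.4 and 30.5 FPKM in Cd28 KO and at 30.8, 26.6 and 44.4 in WT, so that Cd28 KO was higher in replicates 1 and 2 and lower in replicate 3, by -0.52 on the log2 scale. The GTPases Mx1 and Mx2, neighbours on chromosome 16, had means of 11.4 ± 1.06 against 7.79 ± 1.70 FPKM and 5.35 ± 1.55 against 3.14 ± 0.607 FPKM. C57BL/6 mice carry an Mx1 allele that makes no functional protein. Bst2, the tetherin that holds budding viruses at the membrane, had means of 391 ± 33.0 and 309.9 ± 31.9 FPKM without overlap. Ifitm3, which blocks viral entry and was the most abundant member, had means of 2725 ± 436 and 2517 ± 211 FPKM, and Cd28 KO was higher only in the replicate 3 pair of the 3 pairs.

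The last 4 effectors had the largest median of any role, 0.59. Xaf1, a proapoptotic factor (chromosome 11, 72301461 to 72313733), stood at 23.1, 22.8 and 22.7 FPKM in Cd28 KO and at 15.7, 15.6 and 13.6 in WT. The 3 Cd28 KO libraries were nearly equal, and the difference was 0.58 ± 0.11 (SE). Ifi44, an antiviral protein of poorly defined mechanism (chromosome 3, 151730922 to 151749910), stood at 22.5, 26.1 and 19.03 FPKM in Cd28 KO and at 15.3, 14.04 and 14.2 in WT, without overlap and with a difference of 0.59 ± 0.14 (SE). Pml, the organiser of nuclear bodies (chromosome 9, 58217179 to 58249796), stood at 16.6, 20.9 and 12.9 FPKM in Cd28 KO and at 16.8, 15.4 and 12.99 in WT, with both ranges overlapping. Ifi27l2a, a small mitochondrial protein, had means of 736 ± 55.2 and 498 ± 120.0 FPKM (SD, n = 3 each) without overlap.

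**Figure D5:**
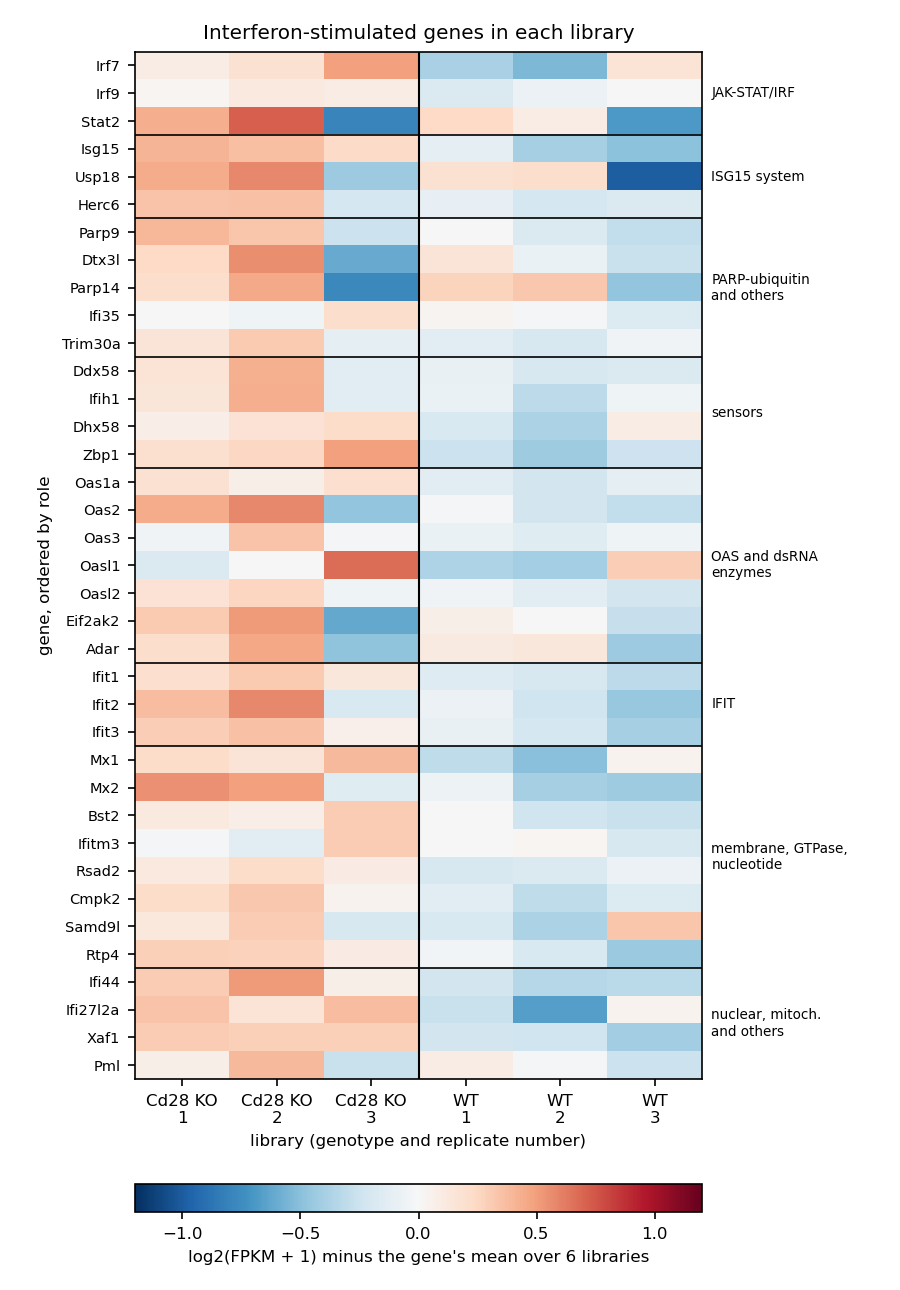
Level of each of the 37 genes (rows, ordered by role) in each library (columns), as log2(FPKM + 1) minus the gene's mean over the 6 libraries. Cd28 KO replicates 1 and 2 are mostly red (above the mean), the WT columns mostly blue (below it) and Cd28 KO replicate 3 is mixed, and Stat2, Usp18, Dtx3l, Parp14, Eif2ak2 and Adar are blue in both replicate 3 columns.

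Members also differed in how the replicate 3 libraries stood to the other libraries of their own genotype. Replicate 3 lay below the mean of replicates 1 and 2 for 26 of the 37 members in Cd28 KO and 23 in WT, beside 6454 and 6003 of the 10172 tested genes, so that most genes lay lower there whether or not they were members. In both genotypes, 20 members were lower in replicate 3 than the mean of replicates 1 and 2, 8 were higher and 9 went opposite ways. The 8 were Irf7, Irf9, Dhx58, Zbp1, Oas1a, Oasl1, Mx1 and Ifi27l2a. The median of the middle transcript length was 1885 bases over the 7 of these with a length and 2955 over the 20. Across 36 members with a length, Spearman's rho between length and the replicate 3 difference was -0.49, and across 10118 tested genes it was -0.01. These points share the same libraries and are given as a description.

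Several members have close copies in the genome, between which RSEM divides reads by estimation. For 4 members whose groups did not overlap, the sum with the copy did not overlap either. The Oas1a and Oas1g sums lay from 152 to 167 FPKM in Cd28 KO libraries and from 122 to 131 in WT libraries, and those of Ifit3 and Ifit3b from 122 to 153 and from 88.5 to 112. Ifit1 with Ifit1bl1 summed to 40.5 to 44.8 and 29.9 to 31.9 FPKM. Ifi27l2a with Ifi27l2b summed to 674 to 777 and 378 to 618 FPKM. The sums of Trim30a with Trim30d and of Ifitm3 with Ifitm2 overlapped between the genotypes, as the single genes did.

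The 37 members lie on 15 chromosomes, and 0 of them on chromosome 1, which carries Cd28. Within clusters the differences ran from 0.43 to 0.50 for the Ifit genes, from 0.51 to 0.59 for Mx1 and Mx2, from 0.26 to 0.32 for Oasl1 and Oasl2, from 0.29 to 0.39 for Rsad2 and Cmpk2, from 0.19 to 0.36 for Oas1a, Oas2 and Oas3, and from -0.07 to 0.31 for Parp9, Dtx3l and Parp14.

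Genes upstream of the list were read from a list of the pathway. Of 21 interferon genes, including the alpha family, Ifnb1 and Ifng, 20 were listed in no library. Ifnab was listed in Cd28 KO replicate 3 alone, at 0.17 FPKM. None of the ligands could therefore be tested, and the files give no depth from which to set a limit for a gene that is not listed.

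The 8 genes listed as receptors and kinases were all tested, and limma called 0 of them, with 0 at an unadjusted p below 0.05 and 0 with the block. Their median difference was -0.01, with 4 positive and 4 negative. Ifnar1, the receptor subunit that binds Tyk2 (chromosome 16, 91485032 to 91510523), stood at 18.4, 18.2 and 17.7 FPKM in Cd28 KO and at 20.4, 20.4 and 23.2 in WT. All its Cd28 KO values lay below the WT values, as in 2.87% of all tested genes, and the difference was -0.22 ± 0.11 (SE, limma adjusted p = 0.9995).

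Of 15 genes that sense nucleic acids or relay the signal to interferon genes, limma called 0, and 0 stood at an unadjusted p below 0.05. With the replicate block limma called 0, and Ikbke stood higher at an unadjusted p below 0.05 (0.002, limma adjusted p = 0.25). The median difference was 0.06. Irf5, a transcription factor downstream of Toll-like receptors, lay lower in all Cd28 KO libraries, at 148, 144 and 136 FPKM against 159, 179 and 155 in WT. Ikbke, a kinase that activates Irf3 and lies on chromosome 1, stood at 34.6, 36.7 and 24.3 FPKM against 26.6, 27.8 and 17.7, higher in each pair.

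The 9 genes listed as brakes on the pathway had a median of 0.11, and the 12 tested of 15 genes that lean towards interferon-gamma had 0.18. The brakes include Ifi203, which belongs to the Ifi200 family of DNA sensor genes and whose place as a brake was not tested. In each list limma called 0 members, and 0 stood at an unadjusted p below 0.05. With the replicate block limma again called 0 in each list. In that fit Ifi203, Cxcl10 and Gbp3 stood higher and Cd274 lower at an unadjusted p below 0.05. Of the 10172 tested genes, 517 stood higher and 286 lower in the same way. Ptpn11, a phosphatase, had means of 11.9 ± 2.39 and 14.4 ± 0.371 FPKM (SD, n = 3 each). Ifi203, on chromosome 1, had 47.1 ± 9.38 and 38.5 ± 1.83. Cxcl10, a chemokine that both interferon types induce, had 13.6 ± 3.02 and 10.5 ± 2.23 FPKM, and Gbp3, a GTPase, 6.43 ± 0.824 and 5.08 ± 1.65.

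Markers of other cells were read beside these differences. The 8 markers of plasmacytoid dendritic cells, a main source of interferon, include Bst2. The other 7 had sums from 19.5 to 21.8 FPKM in Cd28 KO libraries and from 20.8 to 21.7 in WT libraries. Most of each sum was Tcf4, and Klk1 was at 0 in all libraries. The 6 monocyte markers were all listed and had sums from 35.3 to 42.0 FPKM in Cd28 KO libraries and from 30.15 to 32.95 in WT libraries. Most of each monocyte sum was Ccr2, at 28.3, 29.7 and 20.1 FPKM in Cd28 KO replicates 1 to 3 and at 20.85, 21.2 and 21.8 in WT. Plac8 was higher in Cd28 KO in every pair (6.3, 7.24 and 9.44 against 2.63, 2.28 and 5.86). F10 was lower in replicates 1 and 2 (3.46, 3.79 and 3.6 against 5.29, 8.49 and 3.13). The part of these markers in the difference of the interferon-stimulated genes was not tested. In bulk RNA, a higher level in each cell and a larger share of cells with a high level cannot be told apart.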

How the data were processed

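Each library had 1 file of FPKM values per Entrez gene, which the authors deposited. Bowtie, RSEM and build GRCm38 were used, per the submitters' processing notes, with versions and depth not given in the sources used here. Files listed only values above 0, the lowest being 0.01, and a missing gene was taken as 0. Symbols and positions came from RefSeq for GRCm38.p6, which matched 14551 of 14574 identifiers.

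Libraries were grouped by title. The 10172 genes whose mean over the libraries reached 1 FPKM were fitted with limma 3.58.1 in R 4.3.3 (empirical Bayes with trend) on log2(FPKM + 1), which understates changes of low genes. Benjamini-Hochberg adjustment ran over all tested genes, two-sided, with calls below 0.05. Ratios are of mean FPKM, and standard errors come from the fit without a replicate block unless the block is named. The fit was tested on simulated data. Deviations from group means of same-numbered libraries correlated at 0.752, 0.505 and 0.783 across genes. All were over 0.1, so a replicate block was the alternative fit. Crosswise, Cd28 KO replicate 1 with WT replicate 2 stood at 0.663. Cd28 KO replicate 2 correlated better with WT replicate 1 (0.535) than with WT replicate 2. Replicate 3 stood apart in both genotypes, so this check cannot show how replicates 1 and 2 pair. The block rests on these data, and the labels state no pairing.

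Members and lists were chosen with earlier results of these data known. Values in every library are given for members called in either fit or with a negative difference, and in each role for the 2 members of smallest and the 1 of largest p. In each pathway list the 2 genes of smallest p are named, except 1 gene that is not reported here. The 8 genes in the plot of levels, and Dtx3l, Eif2ak2 and Samd9l in its companions, were chosen after their values were seen. Summaries used pandas 2.3.3 and SciPy 1.17.1, and figures Matplotlib 3.10.9, in Python 3.11.15.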

Additional observations from a re-analysis of the deposited data

How the results depend on the processing

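The median difference of the members was 0.31 and ranged from 0.26 (TPM scale) to 0.41 (replicates 1 and 2 alone) over the other settings of scaling, filter and pseudocount, and from 0.23 to 0.45 when 1 library was left out, always above the median of all genes. The number of members higher without overlap was 15, beside 3.84% of all tested genes. It was 13 on the TPM scale (2.35% of all tested genes) and 18 with median centring (3.64%). Replicates 1 and 2 alone gave 33 members (25.8%). Leaving out 1 library gave 15 to 29 members, while the share of all tested genes rose to between 4.97% and 16.7%. Omitting Cd28 KO replicate 2 gave 15 members (9.55%), and omitting Cd28 KO replicate 3 gave 29 (16.7%). Omitting WT replicate 3 gave 19 (11.1%). A count that held or rose in these fits is therefore not by itself a steady excess over all genes. Limma called 0 members in the fit of all libraries, 1 with the replicate block, 1 with the replicate block on the TPM scale, 3 with a batch term for replicate 3 (Isg15, Zbp1 and Xaf1) and 11 with replicates 1 and 2 alone, and 0 in each fit that left out 1 library. Over all genes limma called 2, which became 5 without the filter, 18 with the replicate block, 28 with the batch term, 96 with replicates 1 and 2 alone and 2 to 3 with 1 library left out. The block changed no other call of a member than that of Isg15. The 4 fits that combine the block with another setting were added after seeing the data. The Cd28 difference was -14.2 FPKM and lay between -19.1 (without WT replicate 2) and -8.56 (without WT replicate 3) when 1 library was left out. Single members changed sign as follows, none of them called: Stat2 without Cd28 KO replicate 2 (-0.05) or WT replicate 3 (-0.04), Usp18 without WT replicate 3 (-0.00), Dtx3l (-0.12), Eif2ak2 (-0.08) and Pml (-0.03) without Cd28 KO replicate 2, Adar without Cd28 KO replicate 2 (-0.07) or WT replicate 3 (-0.06), Ifi35 in replicates 1 and 2 alone (-0.03), Ifitm3 there (-0.09) or without Cd28 KO replicate 3 (-0.02), and Parp14 in replicates 1 and 2 alone (0.04) or without Cd28 KO replicate 3 (0.29), WT replicate 1 (0.04) or WT replicate 2 (0.07). With 1 library left out the opposite ends were 0.70 for Stat2, 0.71 for Usp18, 0.46 for Dtx3l, 0.48 for Eif2ak2 and 0.40 for Adar (without Cd28 KO replicate 3), 0.19 for Ifitm3 (without Cd28 KO replicate 2) and -0.33 for Parp14 (without WT replicate 3). The cause was not tested. Depth is unknown, so no counting error can be set beside any value.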

Other observations

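4 genes of the pathway lists that stood higher in the replicate 3 libraries of both genotypes are given here as values, and were chosen after these were seen. Socs3, an inhibitor of Janus kinase signalling, stood at 1.2, 1.61 and 29.7 FPKM in Cd28 KO replicates 1 to 3 and at 0.94, 0.81 and 34.8 in WT. Socs1, an inhibitor of the same kinases that interferons induce, stood at 1.99, 2.5 and 11.01 FPKM in Cd28 KO and at 2.49, 1.69 and 7.77 in WT. Cd274, which encodes the ligand PD-L1, stood at 5.52, 5.91 and 16.6 FPKM in Cd28 KO and at 7.63, 7.57 and 21.6 in WT. Irf1, a transcription factor of the interferon response, stood at 30.4, 34.6 and 57.7 FPKM in Cd28 KO and at 33.1, 33.8 and 57.04 in WT.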
